A study of Mus musculus with 9 samples.

Results

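Spheres grown for 10 days from embryonic mouse lung were compared with spheres grown for 3 days, across all genes with enough reads. The comparison takes 6 of the 9 libraries of the series, 3 from each day. All come from C57/B6 lungs dissected at E11.5, dissociated with trypsin and left for 1 hour on ordinary culture plastic. The cells that stayed in the supernatant then grew as floating pneumospheres in ultra-low attachment wells, in a defined medium with B27 and ITS supplements, heparin, 20 ng/ml basic FGF and 10 ng/ml EGF, under 5% O2. Day 3 libraries were taken at the end of the first growth period and before any split. Day 10 libraries were taken after splits on days 3 and 7, so both sets lie 3 days after cells were seeded. RNA was polyadenylated RNA from whole spheres, and the labels name no sorting of the cultured cells. No genotype or drug separates the groups, and the labels do not say whether the 3 libraries of a day are separate cultures, so p-values measure the spread between these samples. Days in culture and number of splits cannot be told apart. The 3 day 7 libraries entered only the shared estimate of the spread.

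Fibroblast-like cells of the lung build their surroundings from secreted proteins. Fibrillar collagens give tensile strength, type IV collagen and laminins form sheet-like basement membranes, and small proteoglycans and elastic fibre proteins set fibril width and recoil. Growth factors such as FGFs, IGFs, Wnts and BMPs act through these layers and decide how fast mesenchymal cells divide and what they become. Early lung mesenchyme is marked by factors such as Tbx4, Tbx5, Tcf21 and Foxf1, and other embryonic mesenchyme, such as that of the limb and face, by Prrx1, Msx1 and Shox2.

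The smallest of the 6 libraries held 20716878 counts and the largest 29391260. By these raw totals, a count of 0 allows at most 0.145 CPM (taken as 3 counts, counting error only). All other CPM values are the counts scaled to library size by TMM. Means are given below with ± SD (n = 3 libraries a day). Day 10 libraries differed more among themselves than day 3 libraries. This spread was taken only over genes that averaged 20 CPM or more on the day in question, 7785 on day 3 and 7949 on day 10. Genes with lower levels were left out of it. The median SD of log2 level was 0.063 on day 3 and 0.137 on day 10. Of the 7785 and 7949 genes, 17 and 310 spanned over 1 log2 unit within their day. In 14 of the 17 the farthest library was day 3 replicate 2, where 1 unnamed gene ID held 6.79% of the counts. In 190 of the 310 it was day 10 replicate 3. Both libraries were kept, and counts without the pair are given beside the main groups. The labelled tissue could not be recognised by lung epithelium: Nkx2-1, Foxa1 and Shh had no count in any of the 6 libraries. Only 6 of 25 epithelial markers had enough reads to test. The summed level of these 25 lay between 36.7 and 45.9 CPM on day 3 and between 19.3 and 25.7 CPM on day 10, most of it from Id2, which mesenchyme also expresses.

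Of 14940 tested genes, 8473 (56.7%) passed the edgeR quasi-likelihood test at an adjusted p under 0.05. On day 10, 4408 genes (29.5%) had risen and 4065 (27.2%) had fallen. Most changes were small: 61.6% of the called genes changed by under 1 log2 unit, and the median absolute change over all tested genes was 0.43. At the other end, 347 genes rose and 287 fell by at least 8-fold. The median change over all tested genes was close to 0 (0.0018), and the lists below are read beside this value and the shares above. Without day 3 replicate 2 and day 10 replicate 3 together, 3796 genes rose and 3509 fell, and no called gene changed direction. In bulk RNA, fewer cells of a type and less RNA per cell cannot be told apart, and this holds for every gene below. The plot of all tested genes shows the spread of changes over expression level.

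**Figure D1:**
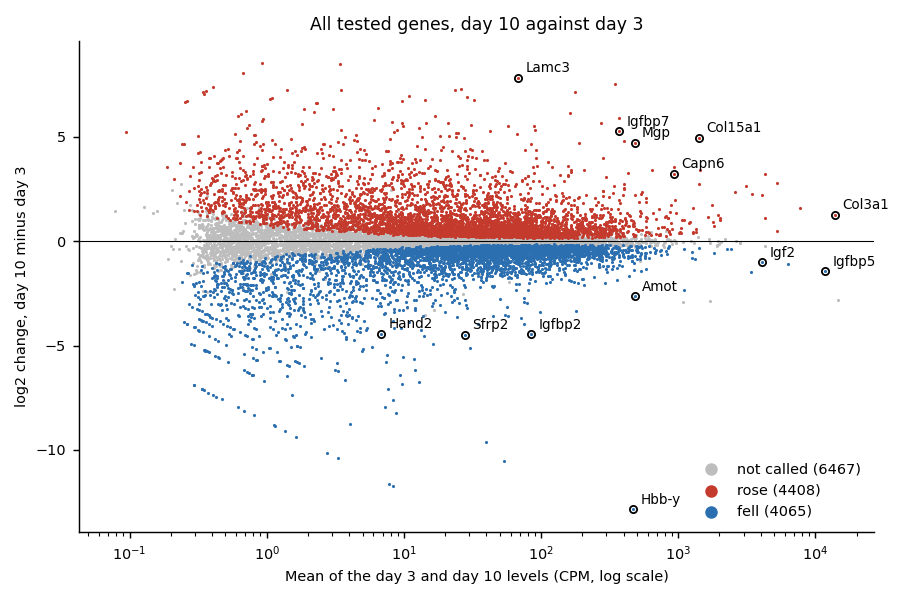
Log2 change from day 3 to day 10 (y axis) against the mean of both days' levels (CPM, log scale) for each of the 14940 tested genes; red points rose (4408), blue points fell (4065) and grey points did not pass (6467). Labelled genes are named in the text except Lamc3 (log2 change 7.82) and Hbb-y (log2 change -12.84). The abundant end of the rises is led by collagens such as Col3a1 and Col15a1.

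Collagen transcripts rose. The 20 genes with the largest rise in CPM were genes of collagens and other matrix proteins, except Capn6, Kctd12 and the receptor gene Pdgfrb. Col3a1, which encodes the type III collagen of soft tissue (Entrez 12825, chromosome 1, 45311538 to 45349706; this and all coordinates are on GRCm38), stood at 8475, 8824 and 7435 CPM on day 3 and 18593, 21558 and 19218 CPM on day 10 (log2 change 1.26, SE 0.12, edgeR adjusted p = 1.4e-05). Each day 10 library lay well above every day 3 library. Col1a1 (Entrez 12842, chromosome 11, 94936224 to 94953042), the main chain of type I collagen, stood at 4059.9, 3949 and 3566 CPM on day 3 and 12061, 12978 and 10066 CPM on day 10 (log2 change 1.60, SE 0.13, edgeR adjusted p = 6.55e-06). Day 10 replicate 3 was the lowest of its group and still far above day 3. Of 11 tested fibrillar collagens 8 rose and 1 fell, with a median of 1.24, and their summed level went from between 16621 and 18432 CPM on day 3 to between 46577 and 51044 CPM on day 10. Without day 3 replicate 2 and day 10 replicate 3, called the pair of doubted libraries below, 8 rose and none fell.

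Collagens of basement membranes and of beaded filaments rose further. In the list of basement membrane and network collagens, 11 of 12 genes were tested, 9 rose and none fell (median 2.35), and the summed level went from between 2447 and 2566 CPM on day 3 to between 17750.0 and 18672 CPM on day 10. Col15a1 (Entrez 12819, chromosome 4, 47207655 to 47313167), a collagen that links basement membrane to the fibrils below, stood at 76.2, 81.7 and 109.9 CPM on day 3 and 2552, 2188 and 3556 CPM on day 10 (log2 change 4.95, SE 0.26, edgeR adjusted p = 8.86e-07). The groups lay far apart, with replicate 3 highest on both days. Col18a1, its close relative and the source of endostatin, rose from 178 ± 3.91 to 908 ± 227 CPM. Type VI collagen forms beaded filaments around cells. Col6a3, the long chain, stood at 802, 946 and 759 CPM on day 3 and 8978, 6734 and 7744 CPM on day 10 (log2 change 3.23, SE 0.14, edgeR adjusted p = 1.52e-07), and Col6a1 and Col6a2 rose by 2.35 and 2.24 on the log2 scale. Among the 19 tested other collagens 9 rose and 3 fell. The falls included Col13a1, a transmembrane collagen, from 56 ± 4.24 to 16.8 ± 0.996 CPM, and Col12a1, which coats fibrils, from 375 ± 73.5 to 230.1 ± 43.4 CPM.

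Laminins and their partners rose in part, by very different amounts. Of 14 tested laminin, nidogen and perlecan genes 8 rose and 1 fell (median 0.96). Lama2 (Entrez 16773, chromosome 10, 26981285 to 27617191), the alpha chain of muscle and nerve laminin, stood at 110.5, 114 and 110.2 CPM on day 3 and 1102, 1084 and 1343 CPM on day 10 (log2 change 3.40, SE 0.12, edgeR adjusted p = 7.8e-08). Lama4, the alpha chain of vessel laminins, stood at 643 ± 19.7 CPM on day 3 and 605 ± 155 CPM on day 10 and was not called, and Lama1, an alpha chain of early embryonic basement membrane, at 9.13 ± 1.01 CPM on day 3 and 7.14 ± 2.46 CPM on day 10, also not called. Agrn, which encodes agrin, was the only member to fall, from 494 ± 18.3 to 257 ± 19.8 CPM. Nid1, which joins laminin to type IV collagen, rose from 824 ± 45.9 to 2711 ± 301 CPM.

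Genes that finish and fold collagen moved with it. All 28 genes of collagen modification were tested, 23 rose and 1 (the procollagen protease gene Tll1) fell, with a median of 1.13; without the pair of doubted libraries 20 rose. Serpinh1, the collagen chaperone Hsp47, rose from 1374 ± 61 to 2272 ± 353 CPM. Among the lysyl oxidases, which cross-link fibres, Loxl1 rose from 24.1 ± 1.21 to 289 ± 99.3 CPM (log2 change 3.58, SE 0.24, edgeR adjusted p = 3.22e-06). Lox was uneven, at 18.4, 20.8 and 15.2 CPM on day 3 and 31.2, 49.9 and 112 CPM on day 10, lowest in day 10 replicate 1 and above all day 3 libraries in each case (adjusted p = 0.00802). Tgm2, a transglutaminase that cross-links matrix proteins, rose from 12.5 ± 3.76 to 85.8 ± 22 CPM.

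Small leucine-rich proteoglycans, which bind collagen fibrils and set their width, gained the highest median of the matrix lists: 13 of 15 were tested, 10 rose and none fell (median 2.93), and their summed level went from between 826 and 934 CPM on day 3 to between 6799.9 and 7514 CPM on day 10. Lum, encoding lumican (Entrez 17022, chromosome 10, 97565501 to 97572703), stood at 24.4, 25 and 33.1 CPM on day 3 and 1010.5, 668 and 649 CPM on day 10 (log2 change 4.82, SE 0.23, edgeR adjusted p = 4.39e-07). Kera, encoding keratocan, a proteoglycan best known from cornea and tendon (Entrez 16545, chromosome 10, 97606962 to 97613688), stood at 10.6, 11.9 and 9.04 CPM on day 3 and 632, 654 and 316 CPM on day 10 (log2 change 5.67, SE 0.30, edgeR adjusted p = 8.88e-07). Replicate 3 had the lowest Kera level on day 10. The groups did not overlap, as in 64.4% of all tested genes, and the largest changes of a list were named only from such genes. Bgn, encoding biglycan, rose from 245 ± 39.1 to 2634 ± 505 CPM, and Aspn, encoding asporin, from 27.9 ± 4.25 to 302 ± 30.7 CPM. The plot of matrix genes by library shows these values.

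**Figure D2:**
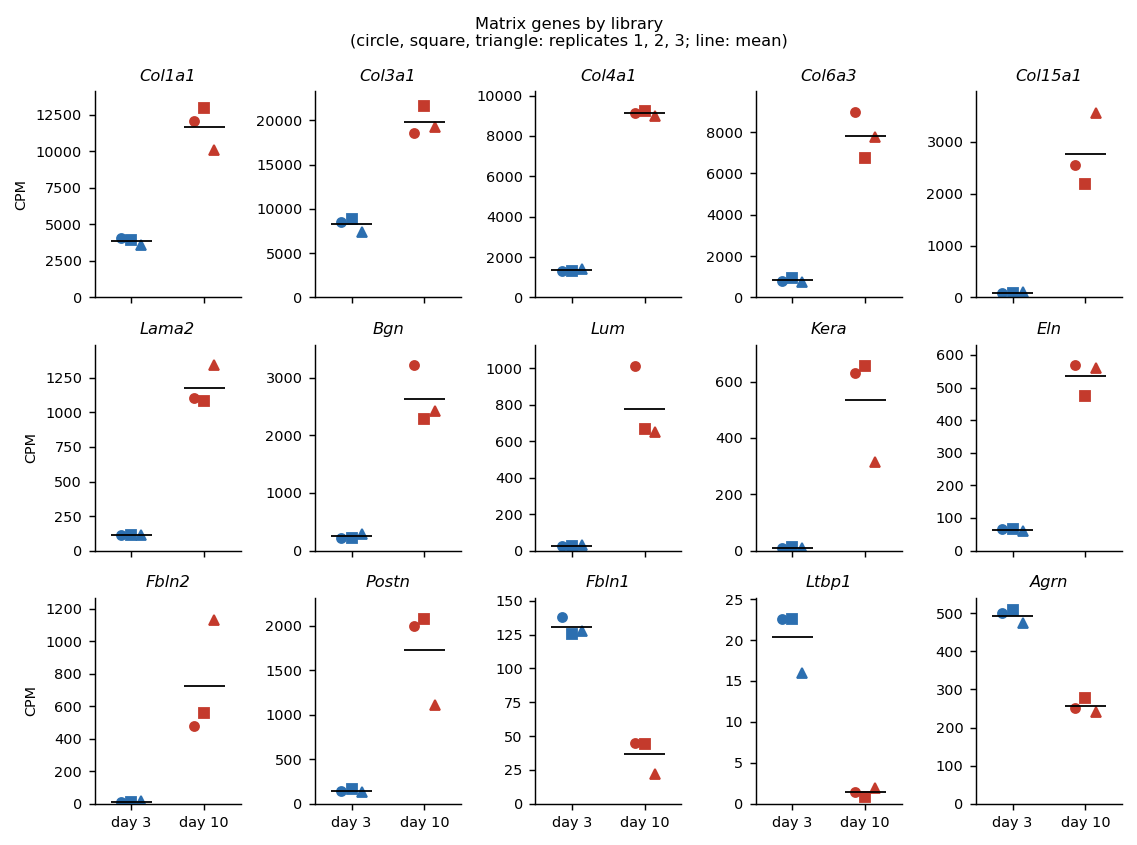
Levels (CPM, y axes from 0, each gene on its own scale) of 15 matrix genes in the 3 day 3 libraries (blue) and the 3 day 10 libraries (red); symbols mark the replicate number and the line the mean. In 12 genes all day 10 libraries lie above all day 3 libraries, and in Fbln1, Ltbp1 and Agrn all lie below. Of all 14940 tested genes, 9623 (64.4%) likewise did not overlap between days.

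Elastic fibre genes split. Of 19 tested 14 rose and 4 fell (median 1.09). Eln, which encodes elastin itself, stood at 66.5, 65.5 and 61.3 CPM on day 3 and 570.4, 475 and 561 CPM on day 10 (log2 change 3.05, SE 0.17, edgeR adjusted p = 9.3e-07). Fbln2, encoding fibulin-2, rose from 12 ± 2.78 to 724 ± 356 CPM (log2 change 5.91, SE 0.42, edgeR adjusted p = 4.23e-06), and Fbln5, a fibulin needed for elastic fibre assembly, from 15.4 ± 2.48 to 77.7 ± 5.52 CPM. The 4 that fell were Ltbp1, Fbln1, Efemp1 and Mfap4. Ltbp1, which stores latent TGF-beta in the matrix, stood at 22.5, 22.6 and 16 CPM on day 3 and 1.39, 0.881 and 1.91 CPM on day 10 (log2 change -3.86, SE 0.28, edgeR adjusted p = 3.33e-06). Of the fibrillins, Fbn1 rose by 1.09 on the log2 scale, and Fbn2, the fetal fibrillin, stood at 804 ± 51.9 CPM on day 3 and 861 ± 99 CPM on day 10 and was not called (95% interval -0.13 to 0.33).

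Matricellular proteins, which sit in matrix and signal without building it, rose in 16 of 25 tested genes and fell in 3. Postn, encoding periostin, stood at 139, 170.3 and 137 CPM on day 3 and 1995, 2084 and 1109 CPM on day 10 (log2 change 3.54, SE 0.27, edgeR adjusted p = 6.45e-06). Tnc, encoding tenascin-C, was uneven: it stood at 2119, 2208 and 1499 CPM on day 3 and 2741, 2370.5 and 783 CPM on day 10, so that day 10 replicate 3 lay below every day 3 library and the other 2 above, and it was not called (95% interval -0.95 to 0.99). Sparc rose from 383 ± 26 to 1510.3 ± 135 CPM. Spp1, encoding osteopontin, stood at 0.93, 3.35 and 3.09 CPM on day 3 and 225, 41.2 and 71.4 CPM on day 10 (log2 change 5.51, SE 0.75, edgeR adjusted p = 0.000327), with replicate 1 several times above the others. Of 39 tested metalloproteinase, ADAMTS and inhibitor genes (52 listed) 24 rose and 6 fell. Mmp2 and Mmp14, a gelatinase and its membrane-bound activator, rose by 1.15 and 1.02. Mmp19 rose from 1.31 ± 0.371 to 48.3 ± 9.92 CPM. Adamts17 and Mmp25 were among those that fell, by 1.85 and 1.76 on the log2 scale.

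At the cell surface, cadherins mostly fell. Of 21 tested integrin subunits 8 rose and 3 fell (median 0.25), and 1 fell without the pair of doubted libraries. Itgb1, the shared beta chain of collagen and laminin receptors, stood at 1111, 1116 and 1115 CPM on day 3 and 1448, 1458 and 1458 CPM on day 10 (log2 change 0.38, SE 0.07, edgeR adjusted p = 0.000924), a rise that was small and very even. Itga1, a collagen receptor chain, rose from 37.1 ± 3.7 to 98 ± 21.1 CPM, and Itgav from 264 ± 35.7 to 519.6 ± 116 CPM. Of 14 tested cadherins (23 listed) 9 fell and 2 rose (1 without the pair of doubted libraries; median -1.38). Cdh2, encoding N-cadherin, stood at 277, 273 and 281 CPM on day 3 and 75.6, 79.9 and 58.6 CPM on day 10 (log2 change -1.96, SE 0.13, edgeR adjusted p = 2.4e-06). Cdh11, the cadherin of mesenchyme and bone-forming cells, went the other way, at 144, 148 and 134 CPM on day 3 and 449, 466 and 394 CPM on day 10 (log2 change 1.61, SE 0.10, edgeR adjusted p = 1.38e-06). The summed cadherin level went from between 509 and 514 CPM on day 3 to between 487 and 591 CPM on day 10. Gja1, the gap junction protein connexin 43, fell from 206 ± 8.34 to 82.6 ± 25.9 CPM, and Tjp1, a junction scaffold, from 359.5 ± 22.3 to 196 ± 21.3 CPM. Syndecans and glypicans are proteoglycans that present growth factors. In their list, which also held Cspg4, 8 of 11 tested genes rose and 2 fell. Sdc2 rose from 74.5 ± 4.18 to 350.4 ± 29.5 CPM and Cspg4, encoding NG2, from 35.2 ± 3.22 to 258 ± 59.3 CPM. Gpc3, a glypican abundant in fetal tissue, fell from 179 ± 20.3 to 17.3 ± 4.83 CPM (log2 change -3.38, SE 0.23, edgeR adjusted p = 3.33e-06).

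IGF pathway genes were among the largest losses in CPM. Igfbp5, which encodes an IGF binding protein (Entrez 16011, chromosome 1, 72858065 to 72874865), stood at 16834, 18213 and 16943 CPM on day 3 and 5791, 7102 and 6211 CPM on day 10 (log2 change -1.44, SE 0.12, edgeR adjusted p = 7.79e-06). Of the named genes, none lost more CPM; 1 unnamed ID lost more, because of its level in day 3 replicate 2. Igfbp3 stood at 1939.6, 2055 and 1571 CPM on day 3 and 169.9, 353 and 561 CPM on day 10 (log2 change -2.36, SE 0.39, edgeR adjusted p = 0.000666), with replicate 1 lowest and replicate 3 highest on day 10. Igfbp2 fell from 162 ± 18.9 to 7.33 ± 2.4 CPM (log2 change -4.45, SE 0.23, edgeR adjusted p = 8.58e-07). Igf2 (Entrez 16002, chromosome 7, 142650768 to 142666816), the fetal growth factor, stood at 5135, 5731 and 5603 CPM on day 3 and 1478, 3448 and 3221 CPM on day 10 (log2 change -1.02, SE 0.26, edgeR adjusted p = 0.00776), and replicate 1 again was the lowest. Other members rose. Igfbp7, a secreted protein with weak IGF binding, stood at 20.9, 17.9 and 17.2 CPM on day 3 and 765, 493 and 908 CPM on day 10 (log2 change 5.27, SE 0.29, edgeR adjusted p = 1.01e-06), and Pappa, a protease that cuts IGF binding proteins, rose from 0.801 ± 0.366 to 26.2 ± 20.6 CPM. The list as a whole had 4 rises and 8 falls among 19 tested genes, and its summed level went from between 27008 and 29203 CPM on day 3 to between 10884 and 13889 CPM on day 10.

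PDGF receptors and ligands rose. All 7 genes of this list were tested, 6 rose and none fell (median 1.29). Pdgfrb, the receptor of pericytes and fibroblasts, stood at 573, 629 and 711 CPM on day 3 and 1852, 2078 and 1792 CPM on day 10 (log2 change 1.58, SE 0.10, edgeR adjusted p = 1.76e-06). Pdgfra rose from 371 ± 46.7 to 805 ± 300.2 CPM, with day 10 replicate 3 highest, and Pdgfa, a ligand, from 1.26 ± 0.225 to 10.1 ± 5.27 CPM. The medium supplied FGF and EGF, and their pathway genes moved in both directions. Of 28 tested FGF genes (44 listed) 11 rose and 4 fell. Fgfr1 rose from 329 ± 13.2 to 554 ± 13.3 CPM and Fgfr2 fell from 20.2 ± 0.827 to 5.24 ± 1.66 CPM. Etv4 and Etv5, transcription factors that follow FGF signalling, stood at 195 ± 10.2 CPM on day 3 and 164 ± 34 CPM on day 10 and at 142 ± 3.82 CPM on day 3 and 148 ± 18.9 CPM on day 10, and neither was called. Spry1, a feedback inhibitor, rose by 0.97, and Dusp4, another, fell by 1.18 on the log2 scale. Among 14 tested EGF receptor genes 6 rose and 3 fell. Errfi1, a feedback inhibitor, rose from 171 ± 3.34 to 449.6 ± 95.3 CPM.

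In the Wnt pathway 48 of 65 genes were tested, 23 rose and 13 fell, and secreted antagonists moved both ways. Dkk3 (Entrez 50781, chromosome 7, 112116019 to 112159482) stood at 9.14, 8.56 and 7.89 CPM on day 3 and 181, 171 and 177 CPM on day 10 (log2 change 4.37, SE 0.12, edgeR adjusted p = 1.8e-08). Sfrp2, which binds Wnt ligands, went the other way, at 50.6, 55.9 and 53.1 CPM on day 3 and 3.07, 2.24 and 1.91 CPM on day 10 (log2 change -4.48, SE 0.20, edgeR adjusted p = 2.22e-07). Wnt11 fell from 31.8 ± 5.75 to 5.35 ± 1.32 CPM, and Wnt5a stood at 34.9 ± 2.43 CPM on day 3 and 36.1 ± 7.11 CPM on day 10 and was not called. Axin2, a widely used target gene of beta-catenin, was low on both days (1.47 ± 0.315 CPM on day 3 and 1.16 ± 0.26 CPM on day 10, not called), while Lef1 and Tcf7, nuclear partners of beta-catenin, fell by 1.90 and 2.07 on the log2 scale. Of 51 tested BMP and TGF-beta genes 22 rose and 10 fell. Fst, the activin antagonist follistatin, stood at 0.485, 0.513 and 0.22 CPM on day 3 and 18.9, 23.7 and 15.3 CPM on day 10 (log2 change 5.53, SE 0.47, edgeR adjusted p = 1.23e-05). Bmp4 and the BMP target Id1 were not called, at 14.5 ± 3.11 CPM on day 3 and 14.1 ± 5.4 CPM on day 10 and at 70.7 ± 5.68 CPM on day 3 and 66 ± 12 CPM on day 10. Chrdl1, a BMP antagonist, fell from 33 ± 9.14 to 3.98 ± 2.24 CPM.

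Hedgehog and Notch genes were balanced in number, as were all tested genes (29.5% rose and 27.2% fell). Of 13 tested Hedgehog genes 3 rose and 3 fell. Ptch1, a receptor and target, stood at 26.2 ± 5.62 CPM on day 3 and 19.9 ± 4.14 CPM on day 10 and was not called. Gli1, another target, rose from a trace, at 0.0405, 0 and 0.132 CPM on day 3 and 2.43, 1.4 and 0.847 CPM on day 10, with 4 counts over the day 3 libraries together. Of 23 tested Notch genes 8 rose and 8 fell. Jag1, a Notch ligand, stood at 4.94, 4.42 and 4.98 CPM on day 3 and 87.4, 84.3 and 44.7 CPM on day 10 (log2 change 3.91, SE 0.25, edgeR adjusted p = 2.63e-06), and Hes1, a target, rose from 21.3 ± 3.74 to 53.6 ± 7.21 CPM. Dll1, another ligand, fell from 10.6 ± 2.74 to 3.92 ± 2.32 CPM (adjusted p = 0.0224); the call was lost without day 3 replicate 3, day 10 replicate 1 or day 10 replicate 2, with an adjusted p of up to 0.0804. Among YAP and TAZ genes, Wwtr1, encoding TAZ, rose from 156 ± 4.1 to 347 ± 46.1 CPM and Yap1 fell from 419 ± 18.6 to 279.8 ± 27.2 CPM. Amot, a binding partner of YAP, fell from 830.4 ± 77.9 to 134 ± 7.88 CPM (log2 change -2.63, SE 0.10, edgeR adjusted p = 8.31e-08). The target gene Ccn2 stood at 0.93, 1.03 and 1.32 CPM on day 3 and 47.6, 39 and 19.9 CPM on day 10.

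Single retinoic acid and guidance genes had some of the widest changes. The 18 tested retinoic acid genes had 7 rises and 4 falls (median 0.034), against 29.5% and 27.2% of all genes. Aldh1a1, which makes retinoic acid, had no count in 2 day 3 libraries and stood at 4.27, 2.2 and 13.9 CPM on day 10. Stra6, a retinol transporter, rose from 8.71 ± 1.44 to 68.3 ± 14.1 CPM, and Aldh1a2, the main embryonic retinoic acid enzyme, fell from 8.57 ± 0.96 to 2.8 ± 0.503 CPM. Among semaphorin, plexin and neuropilin genes 12 of 31 rose and 9 fell (median 0.0033), against 29.5% and 27.2% of all genes. Sema3a and Sema3c, secreted axon guidance cues, fell by 3.60 and 2.82 on the log2 scale. Slit2 fell from 445 ± 21.5 to 159.8 ± 34.2 CPM while Slit3 rose from 70.3 ± 6.97 to 277 ± 17.7 CPM. Ntn1, encoding netrin-1, stood at 14.3, 15.9 and 12.1 CPM on day 3 and 217, 129 and 169 CPM on day 10 (log2 change 3.60, SE 0.30, edgeR adjusted p = 1.15e-05), and its receptor gene Unc5b rose from 88.4 ± 5.0 to 475 ± 55.4 CPM.

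Transcription factors of lung mesenchyme did not move together. All 17 genes of that list were tested, 4 rose and 7 fell (median -0.16). Foxf1, a factor of lung and gut mesenchyme downstream of Hedgehog (Entrez 15227, chromosome 8, 121084386 to 121088154), stood at 8.09, 7.26 and 8.77 CPM on day 3 and 8.13, 7.73 and 8.82 CPM on day 10 and was not called (95% interval -0.28 to 0.35). The T-box factors Tbx4 and Tbx5, which pattern lung and trachea mesenchyme, fell from 12.4 ± 0.843 to 1.89 ± 0.426 CPM and from 48.7 ± 3.55 to 6.96 ± 0.519 CPM, and Tcf21, a factor of lung fibroblast precursors, fell from 11.2 ± 1.23 to 4.24 ± 1.58 CPM. Of these 4 markers of early lung mesenchyme, 3 fell and Foxf1 did not pass the test. Hand2, a factor of heart, limb and visceral mesenchyme, stood at 13.5, 11.1 and 14.8 CPM on day 3 and 0.694, 0.841 and 0.318 CPM on day 10 (log2 change -4.42, SE 0.32, edgeR adjusted p = 3.19e-06). Fgf10, the ligand that drives branching in the lung, stood at 19.7, 19.9 and 23.1 CPM on day 3 and 44.1, 35.4 and 42 CPM on day 10 (log2 change 0.95, SE 0.14, edgeR adjusted p = 0.000324), and Meox1 rose from 341 ± 17.6 to 617 ± 52.5 CPM. The list of limb and craniofacial factors mostly rose: 15 of 25 were tested, 10 rose and 2 fell (median 1.98). Msx1 stood at 1.33, 1.14 and 0.882 CPM on day 3 and 15.4, 20.7 and 9.71 CPM on day 10 (log2 change 3.75, SE 0.44, edgeR adjusted p = 9.16e-05), Shox2 rose from 1.42 ± 0.351 to 12.9 ± 3.49 CPM, and Osr2 from 0.537 ± 0.0317 to 5.56 ± 3.04 CPM. Twist2, a factor that holds back differentiation of mesenchyme, fell by 0.72 on the log2 scale. Tbx15, a T-box gene of limb and skin mesenchyme, rose from 0.464 ± 0.13 to 9.71 ± 4.52 CPM.

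Hox genes, which record position along the body axis, mostly fell. Of 39 listed 20 were tested, 13 fell and 2 rose (median -0.82). Hoxa5, needed for lung development (Entrez 15402, chromosome 6, 52201754 to 52204587), stood at 99.1, 90.3 and 101 CPM on day 3 and 33.3, 39.1 and 56.1 CPM on day 10 (log2 change -1.17, SE 0.18, edgeR adjusted p = 0.000387), and Hoxb5 fell from 54.9 ± 4.33 to 19.7 ± 3.71 CPM. Hoxd8 and Hoxd9 were the members that rose. Hoxd8 stood at 0.243, 0.158 and 0.22 CPM on day 3 and 14.3, 15.6 and 5.61 CPM on day 10 (log2 change 5.80, SE 0.52, edgeR adjusted p = 1.63e-05). Sox11, a factor of embryonic progenitors, fell from 299 ± 4.6 to 74.7 ± 9.92 CPM. Foxs1 and Foxl1, forkhead genes of perivascular and gut mesenchyme, rose by 5.25 and 2.89. Meis1 and Meis2, partners of Hox proteins, fell by 0.91 and 1.40, and Nfix rose from 58 ± 3.01 to 158 ± 27.1 CPM. Zeb1 and Snai1, factors of epithelial-mesenchymal transition, rose by 0.55 and 0.60. In their list 7 of 9 tested genes rose, and 5 rose without the pair of doubted libraries. The rise of Zeb2 (edgeR adjusted p = 0.0496) lost its call in 17 of 20 settings.

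**Figure D3:**
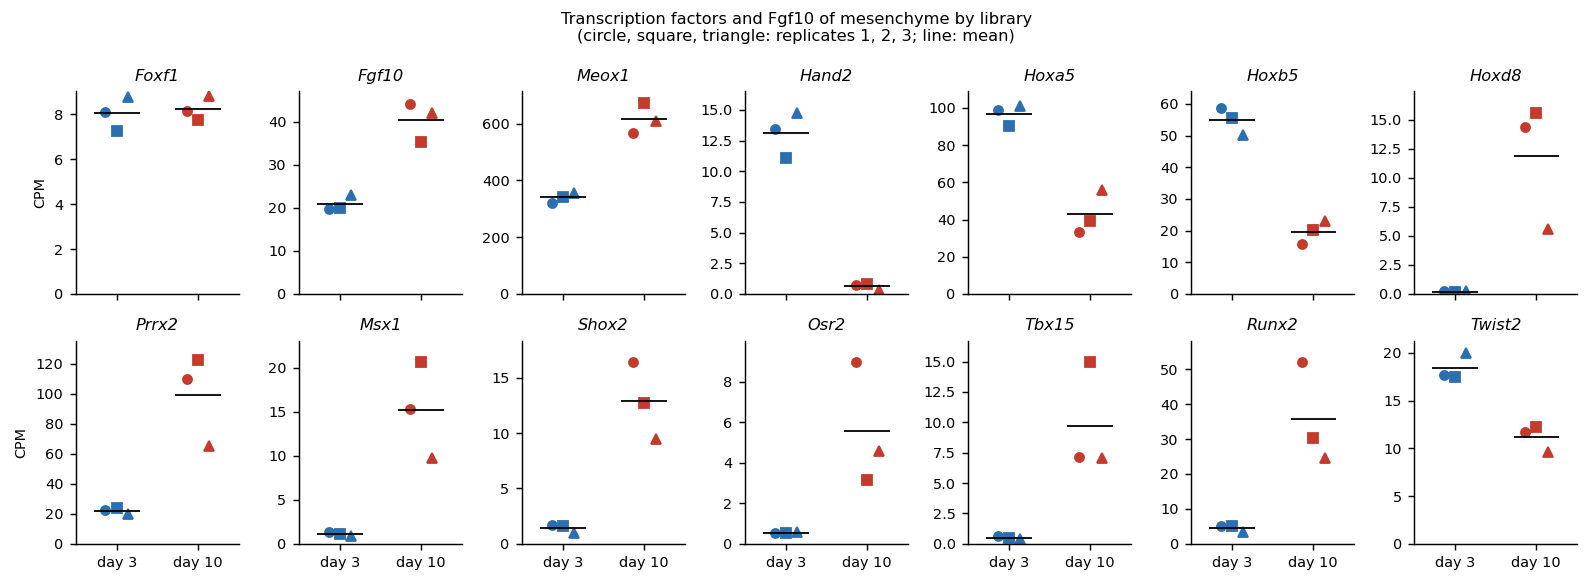
Levels (CPM, y axes from 0, each gene on its own scale) of 13 transcription factor genes and Fgf10 by library, day 3 in blue and day 10 in red, with symbols for replicate numbers and a line at the mean. Foxf1 overlaps between days. Hand2, Hoxa5, Hoxb5 and Twist2 lie lower on day 10 and the other 9 higher. Of all tested genes, 64.4% did not overlap between days.

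Genes of bone, fat, tendon and cartilage rose in part. In the bone list 10 of 13 were tested, 6 rose and none fell. Runx2, which commits cells to bone, rose from 4.43 ± 1.01 to 35.7 ± 14.5 CPM (log2 change 3.00, SE 0.30, edgeR adjusted p = 3.02e-05), and Sp7, its successor, from 0.675 ± 0.165 to 5.19 ± 0.321 CPM. Dmp1, a matrix protein of osteocytes, rose from 0.579 ± 0.093 to 25 ± 6.04 CPM. Bglap, the osteocalcin gene of mature bone cells, stood at 0.0405, 0.0394 and 0.22 CPM on day 3 and 0.0992, 0.0801 and 0.106 CPM on day 10 and was not tested. In the cartilage list Acan, the main cartilage proteoglycan, stood at 0.121, 0.0394 and 0 CPM on day 3 and 0.0496, 0 and 0.141 CPM on day 10 (not tested), and Col2a1 stood at 0.626 ± 0.24 CPM on day 3 and 0.425 ± 0.408 CPM on day 10 and was not called; 6 of 14 tested members rose and 3 fell with all libraries, and 3 rose without the pair of doubted libraries. The summed level of the cartilage list went from between 377 and 419 CPM on day 3 to between 1121 and 1338 CPM on day 10, much of it from Col11a1, which rose from 222 ± 25.2 to 820.0 ± 29.4 CPM. Hapln1, a link protein of cartilage matrix, rose from 3.6 ± 0.59 to 15.8 ± 11.9 CPM, and Comp, shared by cartilage and tendon, from 0.168 ± 0.111 to 21.5 ± 18.2 CPM. Tendon genes divided. Scx and Mkx, tendon transcription factors, fell from 131 ± 12.1 to 19.8 ± 14.3 CPM and from 13 ± 3.47 to 2.27 ± 1.74 CPM, and Tnmd, a tendon surface protein, stood at 9.34, 8.48 and 5.82 CPM on day 3 and 88.1, 154 and 31.4 CPM on day 10 (log2 change 3.53, SE 0.68, edgeR adjusted p = 0.00223), lowest in replicate 3. In the adipocyte and lipofibroblast list 10 of 14 tested genes rose and 1 fell. Pparg, the master factor of fat cells, stood at 4.85, 3.83 and 4.81 CPM on day 3 and 54, 19.4 and 24.5 CPM on day 10 (log2 change 2.85, SE 0.36, edgeR adjusted p = 0.000135), and Fabp4, its target, at 1.17, 1.58 and 2.34 CPM on day 3 and 101, 18.3 and 39.6 CPM on day 10.

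Contractile and perivascular genes also rose in part. Acta2, the smooth muscle actin, stood at 151, 139 and 150.0 CPM on day 3 and 469, 382 and 215 CPM on day 10 (log2 change 1.28, SE 0.25, edgeR adjusted p = 0.00192), and Cnn1, a marker of mature smooth muscle, stood at 0.647, 0.394 and 0.661 CPM on day 3 and 0.645, 0.44 and 0.141 CPM on day 10 and was not called. In the pericyte list 7 of 10 rose and 1 fell. Cox4i2 and Ndufa4l2, respiratory chain subunits typical of pericytes, rose from 1.73 ± 0.198 to 19.5 ± 3.59 CPM and from 3.87 ± 1.04 to 46.9 ± 18.5 CPM. Rgs5, a defining pericyte gene, fell from 6.54 ± 0.647 to 0.619 ± 0.381 CPM (log2 change -3.35, SE 0.34, edgeR adjusted p = 2.49e-05). Mgp, the matrix Gla protein that blocks calcification, stood at 33, 20.9 and 52 CPM on day 3 and 1097, 823 and 864 CPM on day 10 (log2 change 4.72, SE 0.30, edgeR adjusted p = 2.59e-06).

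Erythroid and neuronal transcripts fell. The summed erythroid markers went from between 1189 and 1399 CPM on day 3 to between 33.7 and 88.3 CPM on day 10, with 13 of 16 tested lower; most of the level left on day 10 came from Tfrc, the transferrin receptor of many dividing cells (94 ± 12.7 CPM on day 3 and 43.9 ± 20.2 CPM on day 10). Neuronal markers went from between 169 and 233 CPM on day 3 to between 11 and 14.8 CPM on day 10, with 18 of 20 tested lower and none higher. They included Stmn2, a regulator of microtubules in growing neurites, from 23.9 ± 6.61 to 0.32 ± 0.451 CPM. Nrtn, encoding the neurotrophic factor neurturin, which signals through Ret, fell from 142 ± 28.2 to 8.95 ± 3.83 CPM (log2 change -3.98, SE 0.32, edgeR adjusted p = 9.89e-06), and Nos1, the neuronal nitric oxide synthase, from 14.7 ± 4.55 to 0.329 ± 0.186 CPM. Among 11 tested glial genes 8 fell and 1 rose. Sox10, the defining glial factor, stood at 3.32, 3.67 and 2.87 CPM on day 3 and 0, 0.12 and 0.0353 CPM on day 10. Of the skeletal muscle factors, Myod1 had no count in any of the 6 libraries, and Myog stood at 0, 0 and 0 CPM on day 3 and 0.0496, 0.040 and 0 CPM on day 10. Of 11 tested leukocyte markers (19 listed) 2 fell and none rose, and 6 fell under a replicate block. The summed leukocyte level went from between 20.4 and 33.9 CPM on day 3 to between 9.0 and 14.5 CPM on day 10, and the defining gene Ptprc was at 0.121, 0.118 and 0.265 CPM on day 3 and 0.0992, 0.0801 and 0 CPM on day 10.

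Endothelial genes separated among themselves. Of 19 tested 3 rose and 5 fell, with 3 falls without day 3 replicate 3 and 8 under a replicate block. Pecam1 and Cdh5, defining endothelial genes, stood at 1.62, 2.6 and 5.29 CPM on day 3 and 0.198, 1.16 and 3.85 CPM on day 10 and at 2.95, 4.5 and 11.3 CPM on day 3 and 1.59, 3.2 and 5.93 CPM on day 10; both were highest in replicate 3 on each day and neither was called without a block. Under a replicate block Cdh5 was called lower (edgeR adjusted p = 0.0134) and Pecam1 was not (0.0629). Erg and Tek, an endothelial transcription factor and the angiopoietin receptor, fell from 7.42 ± 1.72 to 0.965 ± 0.725 CPM and from 6.69 ± 2.19 to 2.22 ± 0.0285 CPM. Kdr and Flt4, VEGF receptors, fell from 59.2 ± 10.8 to 12.8 ± 10.2 CPM and from 7.84 ± 3.48 to 3.18 ± 2.08 CPM; the call of Kdr was lost without day 10 replicate 3, alone or together with day 3 replicate 2 (highest adjusted p over the settings 0.105), and that of Flt4 without day 3 replicate 3, day 7 replicate 2, day 10 replicate 1 or day 10 replicate 2 and in 2 further settings (highest 0.161). Eng, which fibroblasts also express, Plvap and Ramp2 rose from 142 ± 16.9 to 408 ± 115 CPM, from 7.52 ± 1.48 to 73.1 ± 20.8 CPM and from 22.8 ± 2.16 to 65.4 ± 8.76 CPM. The part of other cell types in the changes of shared genes was not tested.

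Cell division genes fell almost without exception. In the mitosis and chromosomal passenger list 43 of 45 fell and 1 (Cdc25b) rose, with a median of -1.48, and in the DNA replication list 44 of 45 fell and none rose (-1.03). The numbers were also 43 and 44 without the pair of doubted libraries. Cdk1, the kinase that drives cells into mitosis, stood at 182, 174 and 189 CPM on day 3 and 112, 104 and 63.1 CPM on day 10 (log2 change -0.97, SE 0.20, edgeR adjusted p = 0.0023). Plk1 stood at 103, 97.1 and 104 CPM on day 3 and 43.2, 38.1 and 17.5 CPM on day 10 (log2 change -1.63, SE 0.27, edgeR adjusted p = 0.000661), and Ccnb1, the cyclin partner of Cdk1, at 55.1, 57.5 and 57 CPM on day 3 and 23.6, 19.1 and 8.54 CPM on day 10 (log2 change -1.74, SE 0.29, edgeR adjusted p = 0.000741). Day 10 replicate 3 was the lowest library for each of them, and all 3 day 10 libraries lay below day 3. Top2a and Mki67, abundant in dividing cells, fell from 660.3 ± 9.58 to 210.4 ± 89.3 CPM and from 785 ± 28.5 to 293 ± 124 CPM.

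Promoters of such genes often carry a CCAAT box, bound by NF-Y, and the CHR element, here searched on both strands as TTTGAA or TTCGAA, where the DREAM repressor complex acts in resting cells. The RefSeq table (build GRCm38.p6) held a promoter for 35 of the 43 mitosis genes that fell. In the 250 bases before the start, 25 of the 35 (71.4%) held a CCAAT box, against 37.5% of all promoters in the table and 40.2% of those of the tested genes. The CHR letters were in 11 of the 35 (31.4%), against 19.6% of all promoters and 14.4% of those of tested genes. All 11 held both, a pairing found in 7.00% of all promoters. The CHR share depended on the window: from 250 bases before to 50 after the start it was 26 of 35 (74.3%), against 21.7% of all promoters, and CCAAT was in 26 of 35 as well. Such matches describe the letters in the window only. The promoters of Cdk1 (minus strand, chr10:69352913-69353162), Plk1 (plus strand, chr7:122159185-122159434) and Ccnb1 (minus strand, chr13:100786487-100786736) are printed because the levels of these genes are given above, 5′ to 3′ over the 250 bases before the start, with CCAAT (or its reverse complement ATTGG) and the CHR letters in capitals. Cdk1 holds 3 CCAAT boxes and 2 CHR matches, Plk1 holds 1 CCAAT box, and Ccnb1 holds 2.
Cdk1: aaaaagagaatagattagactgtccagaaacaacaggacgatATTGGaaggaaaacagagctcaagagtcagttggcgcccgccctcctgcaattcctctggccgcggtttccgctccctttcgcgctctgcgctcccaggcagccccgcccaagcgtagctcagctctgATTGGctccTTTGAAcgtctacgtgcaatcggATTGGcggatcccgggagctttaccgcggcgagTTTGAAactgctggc
Plk1: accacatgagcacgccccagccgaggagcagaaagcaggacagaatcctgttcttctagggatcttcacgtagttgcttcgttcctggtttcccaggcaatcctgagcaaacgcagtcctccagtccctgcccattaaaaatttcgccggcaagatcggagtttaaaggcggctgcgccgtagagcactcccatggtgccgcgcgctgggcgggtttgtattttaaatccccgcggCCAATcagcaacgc
Ccnb1: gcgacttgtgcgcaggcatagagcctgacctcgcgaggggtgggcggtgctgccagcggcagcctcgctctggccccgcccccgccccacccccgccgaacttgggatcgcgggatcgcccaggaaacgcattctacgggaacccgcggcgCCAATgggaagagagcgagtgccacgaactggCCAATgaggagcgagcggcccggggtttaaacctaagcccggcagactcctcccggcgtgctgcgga

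DNA repair and chromatin genes followed division genes only in part. Of 30 repair genes 23 fell and 4 rose. Exo1 and Blm, which act at replication forks and in recombination, fell by 2.10 and 1.66 on the log2 scale. Xpc, which finds bulky lesions, was among the 4 that rose, from 36.9 ± 1.73 to 54.7 ± 11 CPM; 2 rose without the pair of doubted libraries. Among G1 genes, Cdk4 fell from 495 ± 25.5 to 303 ± 32.9 CPM, Rb1 rose from 10.3 ± 0.276 to 16.1 ± 1.12 CPM, and Ccnd1 stood at 45.9, 31.5 and 61.3 CPM on day 3 and 44.5, 11.6 and 23 CPM on day 10 and was not called. Cdkn2a, a tumour suppressor locus that also restrains the cycle, rose from 0.51 ± 0.107 to 3.26 ± 1.2 CPM, and Cdkn1b from 43 ± 3.54 to 70.9 ± 10.1 CPM, while Cdkn1c was not called. Of 29 tested Trp53 target genes 19 rose and 5 fell. Ccng1 rose from 71.1 ± 6.79 to 164 ± 27.1 CPM, Trp53 itself fell from 144 ± 1.81 to 92.9 ± 8.67 CPM, and Mdm2 was not called (95% interval -0.04 to 0.37). Uhrf1 and Dnmt1, which copy DNA methylation after replication, fell by 1.62 and 1.17, and Dnmt3a, which sets new methylation, stood at 509.6 ± 21.3 CPM on day 3 and 555 ± 42.5 CPM on day 10 and was not called. The Polycomb methyltransferases changed in opposite directions. Ezh2 stood at 129.7, 133 and 130.3 CPM on day 3 and 63.9, 59.5 and 42.4 CPM on day 10 (log2 change -1.25, SE 0.15, edgeR adjusted p = 9.2e-05), and Ezh1 at 23.9, 26.2 and 23.5 CPM on day 3 and 49.5, 45.9 and 69.6 CPM on day 10 (log2 change 1.16, SE 0.15, edgeR adjusted p = 0.000143). Lmnb1, encoding lamin B1 of the nuclear envelope, fell from 469.6 ± 19.1 to 116 ± 40.7 CPM.

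Genes of the fetal growth programme fell. In the Lin28, let-7 target and oncofetal list 21 of 24 were tested, 16 fell and 1 rose (median -1.01). Igf2bp1 and Igf2bp3, RNA-binding proteins that let-7 represses, fell from 143 ± 6.66 to 38.7 ± 3.32 CPM and from 136 ± 5.06 to 48.9 ± 3.89 CPM. Of 31 tested imprinted genes 7 rose and 6 fell, against 29.5% and 27.2% of all genes, and 18 were not called. H19 (Entrez 14955, chromosome 7, 142575530 to 142578146), the untranslated RNA expressed from the maternal allele beside Igf2, stood at 8188, 9056 and 8692 CPM on day 3 and 2011, 4550.4 and 5645 CPM on day 10 (log2 change -1.09, SE 0.30, edgeR adjusted p = 0.0111). Mest stood at 4816, 4889 and 5208 CPM on day 3 and 1689, 2249 and 1504 CPM on day 10 (log2 change -1.45, SE 0.15, edgeR adjusted p = 2.48e-05). H19 and Igf2 had their day 10 minimum in replicate 1, and Mest in replicate 3. Nnat, encoding neuronatin, fell from 325 ± 37.4 to 31.9 ± 22.4 CPM. Peg10 stood at 2641 ± 305 CPM on day 3 and 2650.1 ± 194 CPM on day 10, with a change of 0.00 (95% interval -0.22 to 0.23), and Ndn rose from 301 ± 12.5 to 516 ± 50.3 CPM.

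Cholesterol synthesis fell through the pathway, and other lipid genes only in part. Of 25 tested genes 23 fell and none rose (median -0.85), and without the pair of doubted libraries 20 fell. Hmgcs1, an early enzyme of the pathway, stood at 571, 659 and 579 CPM on day 3 and 389, 317 and 228 CPM on day 10 (log2 change -0.95, SE 0.19, edgeR adjusted p = 0.00192). On day 10 it was highest in replicate 1 and lowest in replicate 3, and each day 10 value lay below all of day 3. The sterol response element, searched on both strands as TCACNCCAC, is where SREBP2 binds. It was found in 1 of the 15 promoters in the table for the genes that fell, and in 1.22% of all promoters. A CCAAT box was in 14 of these 15 (93.3%, against 37.5% of all promoters). The one promoter with the element, that of Hmgcs1 (plus strand, chr13:119690101-119690350), is printed with it in capitals and its CCAAT boxes left in lower case.
Hmgcs1: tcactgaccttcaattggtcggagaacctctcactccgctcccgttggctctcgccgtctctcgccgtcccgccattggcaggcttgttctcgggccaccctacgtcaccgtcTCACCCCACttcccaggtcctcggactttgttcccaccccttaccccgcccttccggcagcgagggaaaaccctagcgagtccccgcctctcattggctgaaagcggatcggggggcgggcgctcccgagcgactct

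In fatty acid synthesis 12 of 19 tested genes fell and 5 rose. Acly, Fasn and Scd2 fell by 1.19, 0.94 and 0.84 on the log2 scale, and Scd1, the desaturase of fat and liver, was not called (208 ± 24.5 CPM on day 3 and 232 ± 6.69 CPM on day 10). In glycolysis 13 of 24 fell and 3 rose (median -0.68). Pkm, the last enzyme of the pathway, stood at 738, 878 and 893 CPM on day 3 and 266, 357 and 369 CPM on day 10 (log2 change -1.34, SE 0.20, edgeR adjusted p = 0.00038), and replicate 1 was the lowest library on each day. Pfkp, a phosphofructokinase isoform, rose from 12.1 ± 0.945 to 28.6 ± 2.69 CPM. Hypoxia response genes were mixed, with 7 of 22 higher and 3 lower, against 29.5% and 27.2% of all genes. Without day 10 replicate 3 the number lower was 6. Epas1, encoding HIF-2 alpha, rose from 21 ± 1.41 to 155 ± 43.7 CPM (log2 change 2.88, SE 0.20, edgeR adjusted p = 4.24e-06), Hif1a fell from 204 ± 12 to 151 ± 15.3 CPM, and Vegfa was not called (edgeR adjusted p = 0.0594). Of 21 nucleotide synthesis genes 17 fell and 1 rose. None of the 13 protein-coding mitochondrial transcripts was called by edgeR; 2 had an unadjusted p under 0.05, DESeq2 called 1 lower, and 4 fell without day 10 replicate 1. In the nuclear subunits of the respiratory chain 26 of 78 fell and 5 rose, against 27.2% and 29.5% of all genes; 13 fell without day 3 replicate 3, and 8 rose without day 10 replicate 3.

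Genes that make ribosomes fell, while those of the ATF4 and unfolded protein response and of lysosomes rose. Of 43 ribosome biogenesis genes 38 fell and none rose (median -0.59); Dkc1, a pseudouridine synthase complex subunit, fell from 86 ± 2.43 to 38.4 ± 3.02 CPM and Ncl, encoding nucleolin, from 802 ± 19.4 to 550.4 ± 25.4 CPM. Of 79 tested ribosomal protein genes 21 (near the share of all genes) fell and none rose, against 29.5% of all genes (median -0.21). The number that fell was 7 without day 3 replicate 3, 32 without the pair of doubted libraries and 33 with scaling by library size alone. Many ribosomal proteins, like Gapdh, have near-identical pseudogenes, and their low counts here (Gapdh 3.08 ± 0.217 CPM on day 3 and 1.96 ± 0.608 CPM on day 10) may depend on how shared reads were assigned, which was not tested. Proteasome genes fell in 22 of 37 tested (14 without day 3 replicate 3), and the 3 that rose were Psmb8, Psmb9 and Psmb10, the subunits of the immunoproteasome. Of 31 chaperone genes 21 fell and 7 rose. Hspa1a, Hspa1b and Hspb1, which heat and other stress induce, rose from 2.5 ± 0.789 to 7.48 ± 1.19 CPM, from 7.38 ± 2.78 to 19.8 ± 4.69 CPM and from 0.595 ± 0.177 to 5.86 ± 1.33 CPM, and Hspa1a and Hspa1b are near-identical copies that share reads.

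In the ATF4 and unfolded protein response list all 37 genes were tested, 29 rose and 1 fell (median 0.60; 32 rose without the pair of doubted libraries). Ddit3, encoding CHOP, stood at 11.9, 11.8 and 11.7 CPM on day 3 and 38, 47.7 and 34.8 CPM on day 10 (log2 change 1.76, SE 0.12, edgeR adjusted p = 2.47e-06), and Trib3 and Atf5 rose from 7.0 ± 0.767 to 37.7 ± 15.3 CPM and from 90.5 ± 4.44 to 479 ± 85.7 CPM. Hspa5, the main chaperone of the endoplasmic reticulum, rose by only 0.44 on the log2 scale. Of 50 lysosome genes 42 rose and 2 fell (median 0.63). Without the pair of doubted libraries 39 rose and none fell, and 1 fell without any 1 of the 3 day 3 libraries, day 10 replicate 2 or day 10 replicate 3. Ctsk, a collagen-degrading protease (Entrez 13038, chromosome 3, 95499210 to 95509387), stood at 5.62, 5.92 and 7.67 CPM on day 3 and 49.5, 60.1 and 43.2 CPM on day 10 (log2 change 2.99, SE 0.15, edgeR adjusted p = 3.94e-07), and Lamp1, a lysosome membrane protein, rose evenly from 259.8 ± 1.57 to 376 ± 18.4 CPM. The plot of gene lists sets these groups side by side.

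**Figure D4:**
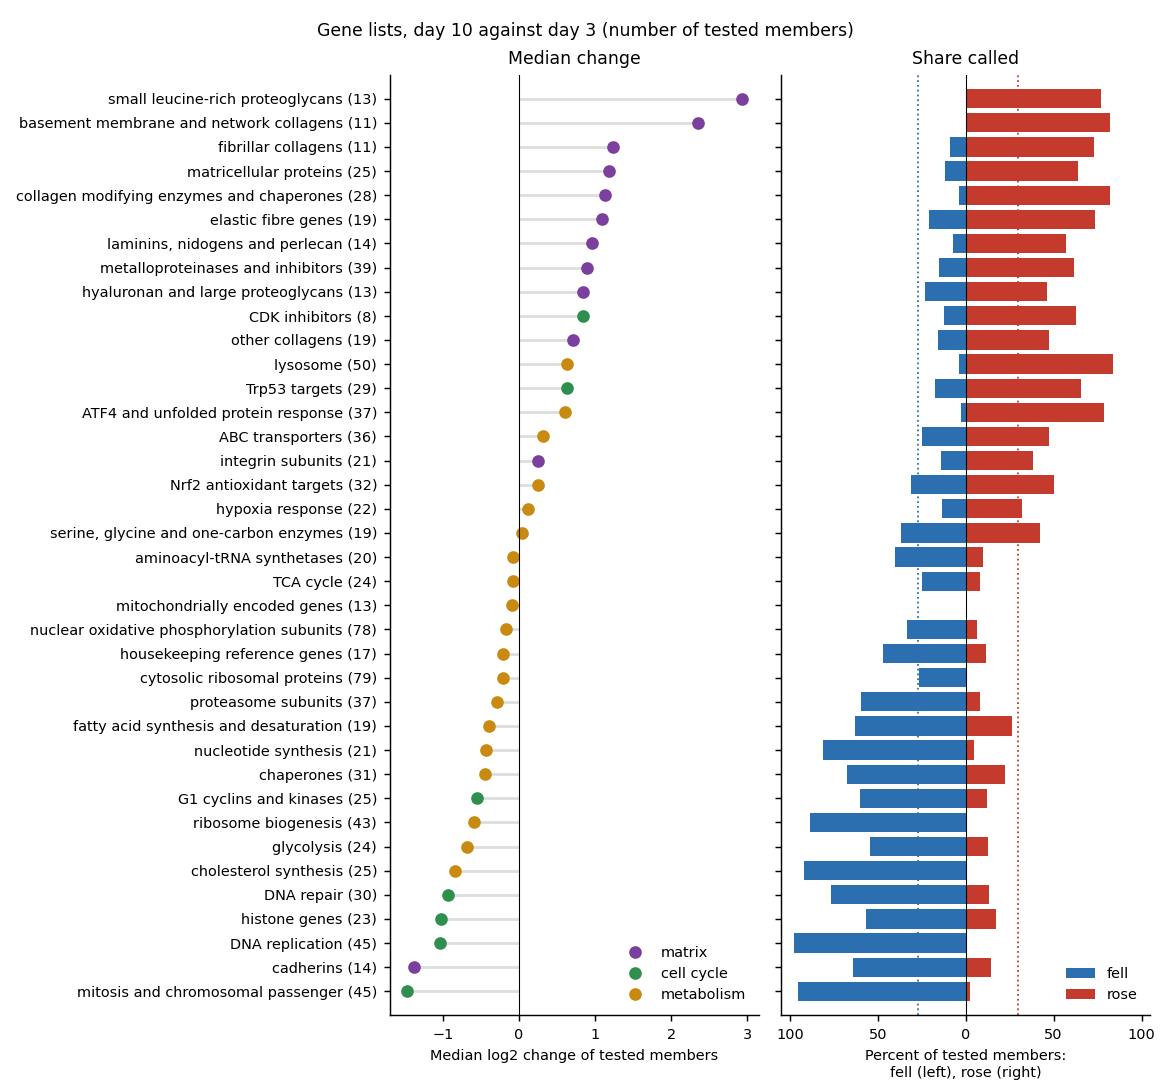
Left, the median log2 change (day 10 minus day 3) of the tested members of each matrix, cell cycle and metabolism list; right, the percent of tested members that fell (blue) or rose (red), with dotted lines at the 27.2% and 29.5% of all tested genes. Small leucine-rich proteoglycans (2.93) stand at the top and mitosis genes (-1.48) at the bottom.

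Complement and antigen presentation genes rose. Of 13 tested complement genes 10 rose and none fell (median 1.48). The protease genes C1ra and C1s1 stood at 0.93, 1.38 and 1.54 CPM on day 3 and 31.9, 40.3 and 68.2 CPM on day 10 (log2 change 5.19, SE 0.38, edgeR adjusted p = 5.41e-06) and at 15.5, 16.3 and 13.1 CPM on day 3 and 115, 209 and 302 CPM on day 10 (log2 change 3.80, SE 0.34, edgeR adjusted p = 1.57e-05). All day 10 libraries lay above all day 3 libraries for both, and 64.4% of all tested genes likewise did not overlap between days. C1qa, C1qb and C1qc, which macrophages make, had too few reads to test. Which cells the complement transcripts came from was not tested. Of 35 tested genes of interferon response and class I presentation 26 rose and 2 fell (median 1.24; 24 rose without the pair of doubted libraries). The antigen presentation genes B2m and Tap2 rose from 76.1 ± 2.07 to 176 ± 21.1 CPM and from 1.03 ± 0.361 to 14.8 ± 2.41 CPM. H2-K1 belongs to a family of near-identical genes, so its rise from 2.1 ± 0.214 to 9.53 ± 2.99 CPM is uncertain. Isg15, Ifit2 and Ifit3, typical interferon-induced genes, were not called, and Rsad2 fell from 7.92 ± 1.77 to 1.56 ± 1.14 CPM. Among 25 tested chemokine and cytokine genes 13 rose and 4 fell. Cx3cl1, a membrane-bound chemokine, rose from 7.72 ± 0.473 to 102 ± 20.4 CPM. Of 24 tested immediate early genes 14 rose and 2 fell. Egr2 and Egr3 rose from 58.9 ± 11.3 to 228 ± 83.6 CPM and from 20.4 ± 3.03 to 74.7 ± 31.2 CPM, and Myc fell from 59.6 ± 2.29 to 21 ± 2.17 CPM. Fos was uneven, at 41.1, 35.2 and 58.2 CPM on day 3 and 232, 110.3 and 20.4 CPM on day 10, and was not called.

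Genes of the cytoskeleton and of calcium-binding proteins changed as well. In the S100 list 10 of 19 genes were tested, 8 rose and 1 fell, and 7 of the rises were at least 2-fold. Among all 14940 tested genes, 1892 rose by at least 2-fold. S100a6 stood at 4.45, 3.79 and 5.42 CPM on day 3 and 426, 279 and 254 CPM on day 10 (log2 change 6.14, SE 0.25, edgeR adjusted p = 2.22e-07), and S100a10 rose from 11 ± 2.4 to 111 ± 42.1 CPM. Anxa1, encoding annexin A1, rose from 2.12 ± 0.161 to 82.8 ± 52.8 CPM. Caveola genes rose, with Cavin1, a coat protein, from 71.2 ± 9.2 to 303 ± 64 CPM and Cavin3 from 4.42 ± 1.04 to 53 ± 1.19 CPM (log2 change 3.59, SE 0.14, edgeR adjusted p = 1.11e-07). The non-muscle myosins parted. Myh9 stood at 621, 619 and 573 CPM on day 3 and 984, 1003 and 964 CPM on day 10 (log2 change 0.70, SE 0.07, edgeR adjusted p = 2.75e-05), and Myh10 at 561, 560.3 and 556 CPM on day 3 and 151, 165 and 146 CPM on day 10 (log2 change -1.86, SE 0.11, edgeR adjusted p = 8.86e-07). Actb fell from 2186 ± 59.6 to 1470.5 ± 304 CPM and Tubb5 from 640.0 ± 24.6 to 314 ± 48.6 CPM, so these common reference genes were not constant here.

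Some genes passed between near absence and clear expression. Under 0.5 CPM in each day 3 library and at least 5 CPM in each day 10 library were 14 genes, and 26 went the opposite way. The first group held Dpep1, a membrane dipeptidase, at 0.243, 0.316 and 0.22 CPM on day 3 and 18.7, 16.2 and 50.5 CPM on day 10, Agt, encoding angiotensinogen, at 0.162, 0.118 and 0.265 CPM on day 3 and 18.6, 10.3 and 29 CPM on day 10, Cp, encoding ceruloplasmin, at 0.121, 0.118 and 0.22 CPM on day 3 and 10.2, 5.88 and 22.4 CPM on day 10, and Zbtb16, a transcription factor, at 0.485, 0.355 and 0.265 CPM on day 3 and 15.9, 12.4 and 28.6 CPM on day 10. The second held globins and neuronal genes such as Nap1l2, at 24.9, 23.5 and 28.3 CPM on day 3 and 0.149, 0.24 and 0.282 CPM on day 10. At least 1 CPM in each day 3 library and no count on day 10 was found for 10 genes, among them Slc4a1, Kel and the globin genes Hbb-b1, Hbb-bs and Hba-a1, and the reverse for 0 genes.

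Other abundant genes hardly moved. For 4214 genes (28.2%) the whole 95% interval of the log2 change lay between -0.5 and 0.5, and 876 of these were called. Gnas, encoding a G protein alpha subunit, stood at 2939.8, 2874 and 2967 CPM on day 3 and 2468, 3242 and 2555 CPM on day 10 (95% interval -0.34 to 0.17). Eef2, a translation elongation factor, stood at 2122 ± 13.7 CPM on day 3 and 2274 ± 389.5 CPM on day 10 (95% interval -0.18 to 0.38), and Ptn, the growth factor pleiotrophin, at 2076 ± 87 CPM on day 3 and 2016 ± 248 CPM on day 10 (95% interval -0.26 to 0.18). Map4k4, a kinase, changed by 0.03 (95% interval -0.13 to 0.18).

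The 3 day 10 libraries differed from each other by gene group. Each was set against the day 3 mean on log2(CPM + 0.5), and the median over the members was taken. For mitosis genes the median was -1.10, -1.15 and -2.24 in replicates 1, 2 and 3. Mitochondrial transcripts ran from 0.45 in replicate 1 to -0.39 and -0.81 in the others, and hypoxia genes from -0.42 to -0.03 and 0.51. Glycolysis genes stood at -0.97, -0.61 and -0.35, cholesterol genes at -0.52, -0.90 and -1.18. For lysosome genes the libraries were close, at 0.74, 0.62 and 0.72. Single genes were wider apart: Slc1a1, a glutamate transporter, stood at 57.2, 19.1 and 9.42 CPM, Tnxb, encoding tenascin-X, at 8.58, 13.7 and 54.2 CPM, and Cilp, a cartilage matrix protein, at 20, 113 and 26.5 CPM on day 10. The cause of these differences was not tested.

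**Figure D5:**
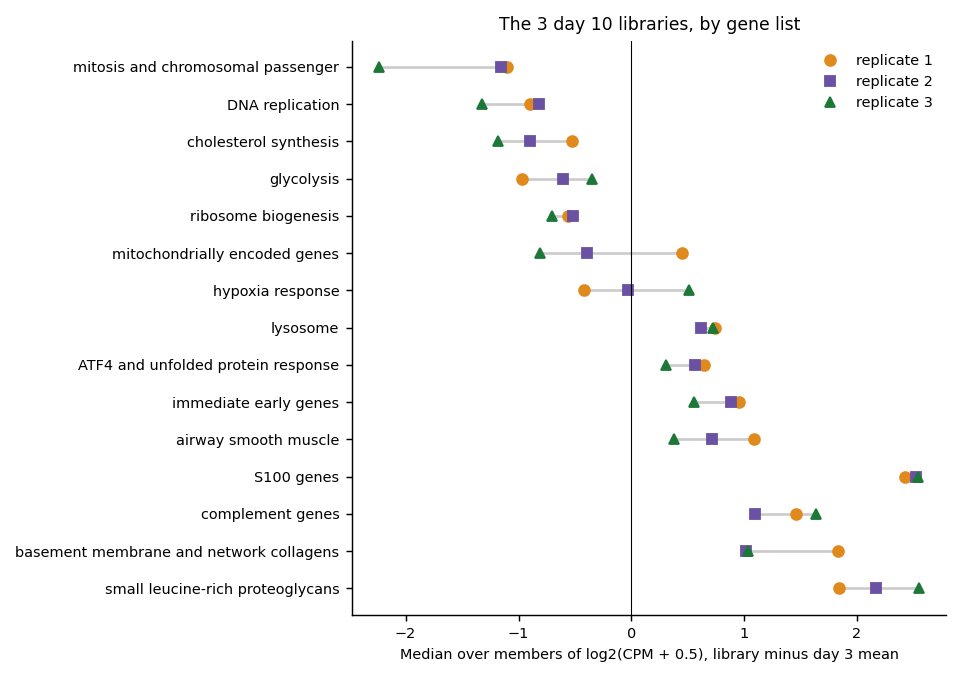
Median over list members of log2(CPM + 0.5) in each day 10 library minus the day 3 mean (x axis) for 15 gene lists; orange circles, purple squares and green triangles are replicates 1, 2 and 3 and grey lines join them. Replicate 3 is lowest for mitosis genes (-2.24), and mitochondrial and hypoxia genes lie on both sides of 0.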

How the data were processed

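Whole-sphere polyadenylated RNA was sequenced as Illumina TruSeq libraries, per the labels' protocols. The deposited values are raw read counts per Entrez gene ID, which per the submitters' processing notes were made with featureCounts on mm10. Not given in the sources used here are the aligner, annotation, multi-mapping and strand settings, so antisense, overlapping and near-identical genes are uncertain. Of 27179 IDs, 25275 were named from RefSeq GRCm38.p6 and 18 from GENCODE M21, and 1886 stayed unnamed.

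Counts were scaled by TMM and fitted in edgeR 4.0.16 (R 4.3.3; filterByExpr, robust quasi-likelihood fit, all 9 libraries, no block), with the contrast day 10 minus day 3, Benjamini-Hochberg adjustment over 14940 genes and a threshold of 0.05. The common biological coefficient of variation was 0.146. The fit was tested on simulated data. Totals and the level that 3 counts stand for are given with the results. Alternatives were DESeq2 1.42.0, other size factors and filters, days 3 and 10 alone, a replicate block and each library left out. Motifs were counted on both strands in RefSeq promoters.

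The 93 gene lists and the members named were chosen with earlier results of these data known. Named genes were the key members of each list, up to 4 members in each direction with the largest change, the 20 largest changes in CPM and the 30 largest in log2 each way, and the 15 with the widest ranges or narrow intervals. The 4 of each list and the 30 largest in log2 were taken only from called genes whose libraries did not overlap between days. Other genes named were chosen after their values were seen.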

Additional observations from a re-analysis of the deposited data

How the results depend on the processing

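Between the alternatives 3639 to 4445 genes rose and 3509 to 4722 fell, and no call changed direction in any of the 20. Scaling by library size alone gave 3639 and 4722, DESeq2 4378 and 4175, and the fit on days 3 and 10 alone 4243 and 3774. Leaving out each library in turn gave 3817 to 4387 higher and 3511 to 4072 lower. The replicate block gave 4412 and 4153. The labels do not say whether a replicate number marks a shared culture across days, and the main fit took none as a pairing. Deviations of same-numbered day 3 and day 10 libraries correlated at 0.118, 0.0840 and 0.0893. Among the day 10 libraries, each day 3 library correlated best with its own number. This did not hold for day 7, where day 3 replicate 2 correlated best with replicate 1 (0.129). Same-number values were 0.110, -0.0033 and 0.217 between days 3 and 7, and -0.069, 0.433 and 0.142 between days 7 and 10. Xist and Eif2s3y, given below, kept the same order over replicate numbers on days 3 and 10. Whether same-numbered libraries share an origin was not tested. Of 726 named genes fitted, 643 were called and 68 of these lost the call in at least 1 setting. With 3 libraries a day, small changes of genes with few counts could not be detected at this depth.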

Other observations

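Some genes kept the same order over replicate numbers on both days. Xist, the RNA that silences an X chromosome, stood at 455, 969 and 1.37 CPM on day 3 and 515, 589 and 0.388 CPM on day 10, and Eif2s3y, a gene of the Y chromosome, at 34.2, 10.1 and 63.1 CPM on day 3 and 38.6, 7.85 and 57.1 CPM on day 10. In day 3 replicate 2, a group of RNAs stood apart from the other day 3 libraries. Lars2 stood at 209, 8314 and 552 CPM on day 3, and the structural RNAs Rmrp and Rn7sk at 0.809, 75.2 and 2.25 CPM and at 2.83, 84.4 and 3.0 CPM. The cause was not tested.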
